A study of Mus musculus with 18 samples.

Results

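The cytosolic ribosomal protein genes were followed across 3 brain regions of mice without T1R3 and of wild-type mice. Members were taken by symbol. They were Rpl or Rps followed by a digit, plus Rplp0, Rplp1, Rplp2 and Rpsa, without the Rps6k kinases and Rps19bp1. The rule found 65 genes among the 16593 named genes of the array, and 58 of them passed the detection filter among 10517 tested genes. Of the 58 genes, 35 encode proteins of the large subunit and 23 of the small subunit. The rule used no value from any comparison between groups.

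T1R3, encoded by Tas1r3, is a taste receptor subunit that pairs with partners to detect sweet and umami tastes. The T1R3KO mice carried a knockout of this gene in a line bred to C57BL/6J mice for at least 4 generations, and the WT mice were C57BL/6J. All animals were males of 4 to 5 months with no other treatment named. Cortex, hippocampus and hypothalamus each had 3 knockout and 3 wild-type arrays, and each of the 18 arrays came from a different animal. The sources used here give neither the allele, nor how far the donor strain's genome was replaced, nor whether wild-type animals were littermates. P-values below measure the spread between these animals.

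Every cytosolic ribosome is built from 1 copy of nearly every ribosomal protein, bound to ribosomal RNA in a small subunit that reads the messenger RNA and a large subunit that joins amino acids. The genes are among the most strongly transcribed in any cell. Their messenger RNAs begin with a run of pyrimidines, the terminal oligopyrimidine tract, through which the mTOR pathway controls their translation. A few members have paralogs whose use differs between tissues. Mammalian genomes also hold many processed copies of these genes with nearly the same sequence, so a probe may bind more than 1 transcript, which was not tested.

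The arrays had mean signals of 788 to 1388 intensity units, with 52.1% to 58.1% of probes detected. The single Tas1r3 probe was detected on 1 of 18 arrays, a wild-type cortex array, with signals of 112 to 164 units, so it gave no check of the genotype labels. The markers of each region were highest in the region named by the labels. On the cortex side, 3 arrays stood apart with raised striatal markers, at 1.73 and 0.96 log2 units over the probes' means in knockout replicates 1 and 3 and 0.83 in wild-type replicate 2, against -0.46 to 0.02 in the other cortex arrays. Choroid plexus markers were at -0.79 in wild-type hippocampus replicate 1 and at 2.96 to 3.69 in the other hippocampus arrays. Pituitary markers were at 2.87 to 3.58 in wild-type hypothalamus and at 0.18 to 1.13 in knockout hypothalamus.

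Of the 58 tested members, 57 were detected on all 18 arrays. Rpl3l, a paralog of Rpl3 known from striated muscle, was detected on 10 arrays and was the member nearest the filter from inside. Rpl14, detected on 2 arrays, was the nearest outside. The 7 genes that were not tested were Rpl14, Rpl17, Rpl39l, Rpl6, Rplp2, Rps23 and Rps23rg1, each with mean signals of 84.3 to 122 units. All of these except Rpl14 were detected on 0 arrays. Whether these probes report their transcripts was not tested, so the readings do not show that the genes are silent. Rps23rg1 is a retrogene that matches the symbol rule and is not a standard ribosome subunit. Normalized log2 signals of the tested members averaged from 6.09 for Rpl3l to 15.43 for Rplp1, an acidic stalk protein. The spread between replicate arrays was small for the family, with a median residual SD of 0.0987 log2 units against 0.159 over all tested genes. That comparison was not matched for signal. The dimmest members, Rpl3l, Rpsa and Rpl21, had the widest spreads, at 0.310, 0.206 and 0.205.

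In the knockout, 1 member fell by a wide margin in every region, and most of the others sat slightly above wild type without passing the test. The member was Rps15a, which encodes a small-subunit protein conserved from bacteria to mammals. In cortex, 0 members rose against 1.21% of all tested genes, and 1 fell against 1.38%. In hippocampus, 0 rose against 0.77% of all genes, and 1 fell against 0.561%. In hypothalamus, 1 rose against 0.713%, and 1 fell against 1.03%. Over the average of the regions, 3 rose against 3.11% of all genes, and 2 fell against 3.13%, and 1 was called without the 3 cortex arrays with raised striatal markers. Calls are limma adjusted p-values under 0.05, adjusted over all 15476 tested probes. Of 58 members, 1 is 1.72%, 2 are 3.45% and 3 are 5.17%, so these shares lay within a few percentage points of the background. Before adjustment, 13 members were higher and 2 lower at p under 0.05 in cortex, 4 and 2 in hippocampus and 3 and 2 in hypothalamus.

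Rps15a (chromosome 7, 1 probe) read 10.18, 10.44 and 10.26 log2 units in knockout cortex and 11.43, 11.16 and 11.36 in wild-type cortex. Its hippocampal signals were 10.22, 10.21 and 10.01 in knockout and 11.36, 11.17 and 11.32 in wild type. In hypothalamus it read 10.69, 10.64 and 10.49 in knockout and 12.19, 12.27 and 12.26 in wild type. All 9 knockout arrays were below all 9 wild-type arrays, and wild-type hypothalamus stood above the other wild-type regions. The fall was -1.03 ± 0.10 (SE) on the log2 scale in cortex, with a limma adjusted p of 1.97e-05. It was -1.14 ± 0.10 in hippocampus, with a limma adjusted p of 7.32e-06. It was -1.63 ± 0.10 in hypothalamus, with a limma adjusted p of 5.57e-08. These are levels 2.04, 2.20 and 3.10 times lower than in wild type. The average over regions was -1.27 ± 0.06, with a limma adjusted p of 5.03e-10. The fall passed the test in every alternative setting and with each array left out.

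The fall of Rps15a was deepest in hypothalamus, where its wild-type level was highest, and knockout levels were closer together between regions than wild-type levels. A moderated F test for unequal knockout effects in the 3 regions gave Rps15a an unadjusted p of 0.00134 and a limma adjusted p of 0.266. By that test 0 of 58 members passed, against 0.0571% of all genes, and Rps15a was the 1 member at an unadjusted p under 0.05. Among the 10 tested neighbours of Rps15a on chromosome 7, 5 on each side, Syt17 and Tmc7 passed the test for the average over regions. Over all tested genes, 3.11% were higher and 3.13% lower by that test. The neighbour Rps13, also a small-subunit gene, did not, with an average change of 0.09 ± 0.05 and a limma adjusted p of 0.374.

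**Figure D1:**
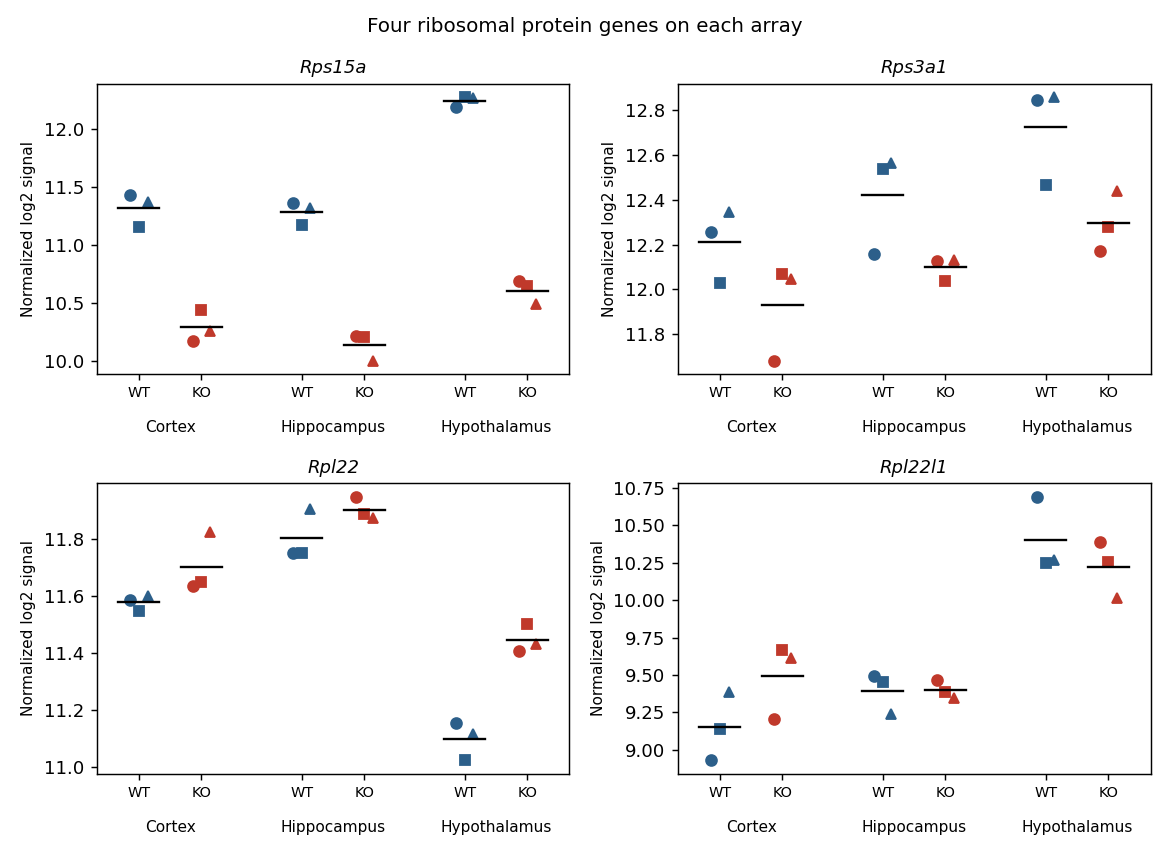
Normalized log2 signal (vertical axis) of Rps15a, Rps3a1, Rpl22 and Rpl22l1 on each array, by region and genotype (horizontal axis: WT, wild type, blue; KO, knockout, red). Circles, squares and triangles are replicates 1, 2 and 3 and black lines are means of 3 arrays; the vertical axes differ and do not start at 0. Rps15a is lower on all 9 knockout arrays, while Rpl22 is lowest and Rpl22l1 highest in hypothalamus.

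Rps3a1 (chromosome 3), a small-subunit protein near the exit of the messenger RNA channel, was the other member that fell over the average of the regions. Its signals in hypothalamus were 12.17, 12.28 and 12.44 in knockout and 12.85, 12.47 and 12.86 in wild type. In hippocampus they were 12.13, 12.04 and 12.13 in knockout and 12.16, 12.54 and 12.56 in wild type. In cortex they were 11.68, 12.07 and 12.04 in knockout and 12.26, 12.03 and 12.34 in wild type, and only there did the groups overlap. The average change was -0.34 ± 0.08, with a limma adjusted p of 0.0193. The changes within regions, -0.28, -0.32 and -0.43 in cortex, hippocampus and hypothalamus, did not pass the test. Without the 3 cortex arrays with raised striatal markers the average was -0.33, with a limma adjusted p of 0.0564, and with median scaling it was -0.31, at 0.0582.

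Rpl22 (chromosome 4, as is Tas1r3) was the 1 member that rose within a region. Its product is an RNA-binding protein of the large subunit that is not needed for protein synthesis as such. In hypothalamus it read 11.40, 11.50 and 11.43 in knockout and 11.15, 11.02 and 11.12 in wild type, with no overlap. The rise was 0.35 ± 0.08, with a limma adjusted p of 0.0281. In cortex the change was 0.12 ± 0.08 and in hippocampus 0.10 ± 0.08, with limma adjusted p-values of 0.481 and 0.765. The average over regions was 0.19 ± 0.04, with a limma adjusted p of 0.0162. The call for the average was lost without the 3 cortex arrays with raised striatal markers, at 0.17 with a limma adjusted p of 0.094, and with median scaling, at 0.23 with 0.0774. Median scaling, at 0.38 with a limma adjusted p of 0.183, and single arrays left out ended the hypothalamic call. Left out one at a time, knockout replicates 1, 2 and 3 and wild-type replicates 2 and 3 each ended it, with limma adjusted p-values of 0.0630, 0.118, 0.0836, 0.149 and 0.0908 in that order. Of the 10 tested neighbours of Rpl22, Rnf207 and Chd5 passed the test for the average, against 3.11% of all genes higher and 3.13% lower.

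Rpl37a and Rpl35, both of the large subunit, also rose over the average of the regions. Rpl37a, a zinc-binding protein, read 13.62, 13.72 and 13.87 in knockout cortex and 13.58, 13.38 and 13.54 in wild-type cortex. In hippocampus Rpl37a read 13.86, 13.80 and 13.80 in knockout and 13.61, 13.61 and 13.63 in wild type. In hypothalamus it read 13.98, 14.03 and 14.06 in knockout and 14.00, 13.80 and 13.95 in wild type. The genotypes overlapped in hypothalamus and not in the other regions. Its average change was 0.18 ± 0.05, with a limma adjusted p of 0.0343. Rpl35, which lies beside the exit tunnel of the growing peptide, read 14.14, 13.99 and 13.97 in knockout cortex and 13.89, 13.80 and 13.88 in wild type. In hippocampus Rpl35 read 14.06, 14.12 and 14.12 in knockout and 13.94, 13.99 and 13.95 in wild type. In hypothalamus it read 14.34, 14.32 and 14.29 in knockout and 14.20, 14.16 and 14.27 in wild type. Its knockout arrays were above its wild-type arrays in all 3 regions. The average change was 0.14 ± 0.04, with a limma adjusted p of 0.0483. Both calls were close to the threshold. That of Rpl35 was lost in 19 of 27 alternative settings and that of Rpl37a in 15 of 27, single arrays left out among them, with values of 0.12 to 0.15 for Rpl35 and 0.16 to 0.20 for Rpl37a when 1 array was left out. None of the 10 tested neighbours of either gene passed the test for the average, and of those of Rps3a1 only Fcrls did.

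Promoter sequence around the start of transcription is shown for the 5 members called in the knockout and for Rpl22l1, the member with the widest difference between regions. Each line runs 5′ to 3′ on the gene's strand from 40 bases before to 20 bases after a start in RefSeq's annotation of GRCm38.p6. Capitals mark the motifs CTTTC or CTTTTC wherever they lie, and other pyrimidine runs are unmarked. The capitals were not placed to mark the terminal oligopyrimidine tract. In the Rps15a line and the first Rpl22 line they lie before the start. In the Rpl35 line the first lies before the start and the second within the pyrimidine run that begins at the start.
Rps15a (chr7:118116128-118116187, minus strand): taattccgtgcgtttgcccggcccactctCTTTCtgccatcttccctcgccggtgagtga
Rps3a1 (chr3:86142649-86142708, minus strand): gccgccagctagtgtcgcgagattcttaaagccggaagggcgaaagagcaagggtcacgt
Rpl22, first start (chr4:152325686-152325745, plus strand): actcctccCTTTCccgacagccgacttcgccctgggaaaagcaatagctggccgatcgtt
Rpl22, second start (chr4:152324396-152324455, plus strand): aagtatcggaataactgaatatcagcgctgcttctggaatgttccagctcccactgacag
Rpl35 (chr2:39005112-39005171, minus strand): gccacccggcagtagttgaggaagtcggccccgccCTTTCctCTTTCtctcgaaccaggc
Rpl37a (chr1:72711220-72711279, plus strand): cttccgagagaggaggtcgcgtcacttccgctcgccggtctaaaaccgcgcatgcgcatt
Rpl22l1 (chr3:28805468-28805527, plus strand): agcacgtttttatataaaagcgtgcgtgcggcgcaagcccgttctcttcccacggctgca

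The window of Rps15a holds CTTTC once on the sense strand, that of Rpl35 2 times and that of the first Rpl22 start once, and Rpl22l1's holds TATAAA, the core of a TATA box. The windows of Rps3a1, Rpl37a, the second Rpl22 start and Rpl22l1 hold neither CTTTC nor CTTTTC on the sense strand. Unmarked pyrimidine runs are present all the same, such as cttccctc from the start of Rps15a and ttctcttccc just after that of Rpl22l1. In the RefSeq table, 56 of the 65 members had a promoter, with 67 starts in all. In these 60 bases CTTTC stood on the sense strand in 29.9% of the member promoters and 8.11% of all 32851 promoters. CTTTTC did so in 10.4% and 2.3%. Over 300 bases, from 250 before to 50 after the start, CTTTC stood on the sense strand in 64.2% of member promoters and 34.8% of all. CCGGAAG, the core bound by ETS factors, stood on either strand in 34.3% and 8.86% of these longer windows. AAGATGGC, the core bound by YY1, stood on either strand in 11.9% and 2.75%, and Rps15a's short window holds it on the antisense strand. TATAAA was on the sense strand in 7.46% and 8.32%. None of these motifs contains another.

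In the main fit the family as a whole sat a little higher in the knockout, though in hypothalamus not in every setting. In cortex 50 of 58 members were higher than in wild type, 86.2% against 54.9% of all tested genes. In hippocampus 46 were higher, 79.3% against 53.6%, and in hypothalamus 45 were higher, 77.6% against 54.0%. With median scaling in place of quantile normalization 52 were higher in hippocampus, with a median change of 0.143 against 0.055 over all genes. With the deposited z scores 36 were higher in hypothalamus, with a median change of 0.012 against 0.016 over all genes. The median change of the members was 0.11 log2 units in cortex, 0.06 in hippocampus and 0.06 in hypothalamus, against 0.02, 0.01 and 0.02 over all genes. Without the 3 cortex arrays with raised striatal markers, 40 of 58 members were higher in cortex and the median change was 0.04. In hippocampus the median was 0.04 without wild-type replicate 2 and 0.10 without wild-type replicate 3, and in hypothalamus it was 0.01 and 0.10 without the replicates of the same numbers. Without wild-type hypothalamus replicate 2, 34 of 58 members were higher there, and their median of 0.012 stood against 0.016 over all genes. These shifts were smaller than the precision for a single gene, since the 95% interval of a member's change reached 0.196 to either side at the median within a region and 0.113 for the average.

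**Figure D2:**
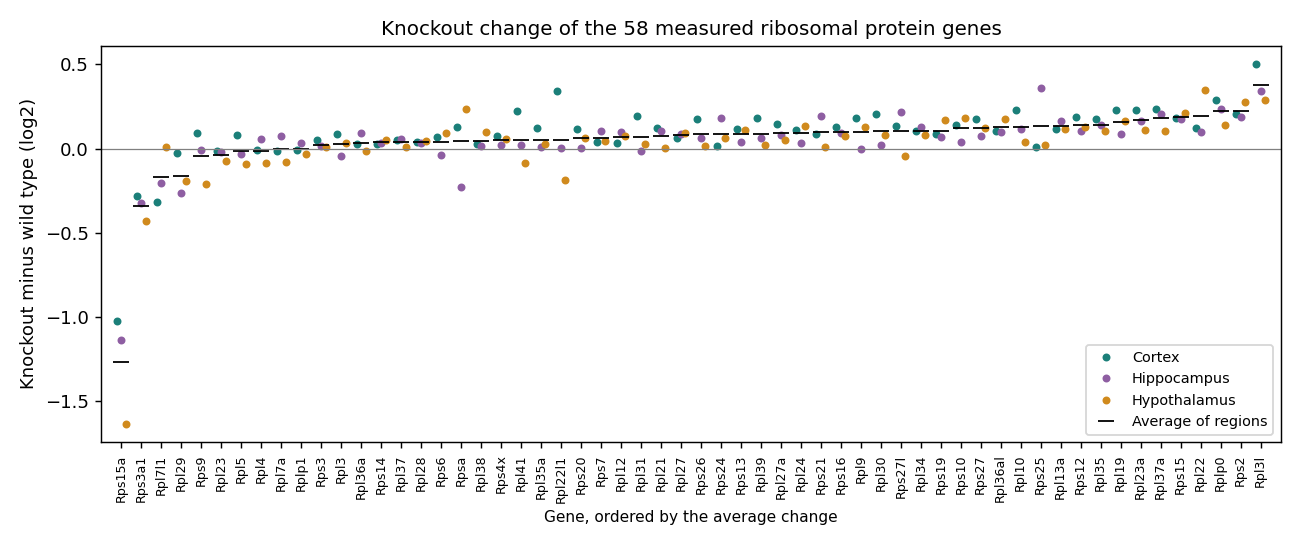
Knockout minus wild-type log2 signal (vertical axis) of the 58 tested members, ordered by the average over regions (horizontal axis). Coloured points are the changes in cortex, hippocampus and hypothalamus, from 3 arrays per genotype each, and black bars are their average. Rps15a lies between -1.03 and -1.63, and most other members lie between 0 and 0.3.

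Across the regions, 39 members were higher in the knockout in all 3, which is 67.2% against 23.2% of all genes, and 4 were lower in all 3, 6.90% against 15.6%. By the labels the 3 regions come from different animals, so the comparisons share no sample. Same-numbered knockout arrays of hippocampus and hypothalamus still correlated at 0.22, 0.26 and 0.37, and independence of the regions was not tested. The 4 lower members were Rps15a, Rps3a1, Rpl29 and Rpl23. Higher in every region were, of the large subunit, Rpl10, Rpl12, Rpl13a, Rpl19, Rpl21, Rpl22, Rpl23a, Rpl24, Rpl27, Rpl27a, Rpl28, Rpl30, Rpl34, Rpl35, Rpl35a, Rpl36al, Rpl37, Rpl37a, Rpl38, Rpl39, Rpl3l and Rplp0. Of the small subunit they were Rps2, Rps3, Rps4x, Rps7, Rps10, Rps12, Rps13, Rps14, Rps15, Rps16, Rps19, Rps20, Rps21, Rps24, Rps25, Rps26 and Rps27. The other members, of mixed sign, were Rpl3, Rpl4, Rpl5, Rpl7a, Rpl7l1, Rpl9, Rpl22l1, Rpl31, Rpl36a, Rpl41, Rplp1, Rps6, Rps9, Rps27l and Rpsa.

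In cortex the knockout arrays lay wholly above the wild-type arrays for 14 members, against 9.29% of all genes, and wholly below for 2, against 7.88%. The 14 members are 24.1% of the family. They were Rpl9, Rpl10, Rpl19, Rpl22, Rpl23a, Rpl27a, Rpl30, Rpl35, Rpl37a, Rpl41, Rplp0, Rps10, Rps27 and Rps27l. In hippocampus this held for 10 members above, against 9.25% of all genes, and 4 below, against 6.86%. In hypothalamus it held for 6 members above, against 10.8%, and 3 below, against 8.85%. The members above were thus 17.2% of the family in hippocampus and 10.3% in hypothalamus, the latter close to the share of all genes.

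The median over members of each array, taken after subtracting each gene's mean over the 18 arrays, shows the same order. In cortex it was -0.05, -0.05 and -0.04 in knockout and -0.17, -0.23 and -0.15 in wild type. In hippocampus it was -0.01, 0.03 and 0.03 in knockout and -0.11, -0.08 and 0.01 in wild type. In hypothalamus it was 0.16, 0.17 and 0.18 in knockout and 0.13, 0.04 and 0.14 in wild type. Knockout arrays were above wild-type arrays without overlap in cortex and hypothalamus and overlapped in hippocampus. Large-subunit and small-subunit members had median changes of 0.12 and 0.09 in cortex, 0.07 and 0.06 in hippocampus and 0.05 and 0.06 in hypothalamus.

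**Figure D3:**
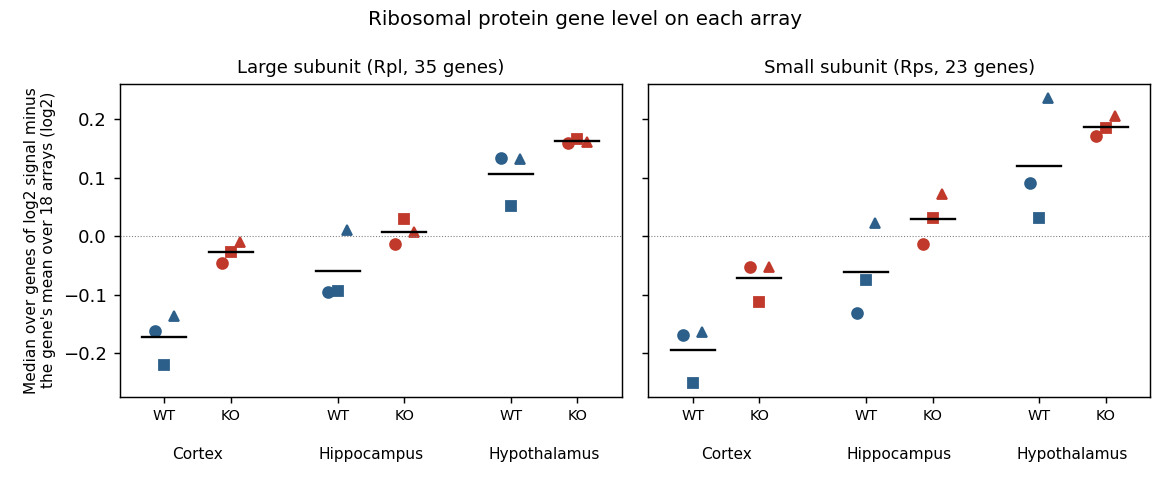
Median over the 35 large-subunit genes (left) and the 23 small-subunit genes (right) of log2 signal minus the gene's own mean over 18 arrays (vertical axis), for each array by region and genotype (horizontal axis: WT blue, KO red). Circles, squares and triangles are replicates 1, 2 and 3 and black lines are means of 3 arrays. In both subunits the values rise from cortex to hippocampus to hypothalamus, and the knockout mean is above the wild-type mean in each region.

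The means of some cell type marker lists also differed between genotypes, with few single markers passing the test. Of the cell type lists in this paragraph, only the oligodendrocyte list had markers that passed, 2 genes lower in knockout cortex. Among the markers of brain regions, 1 cortex marker was lower and 1 hippocampus marker higher in knockout cortex by this test. In knockout hypothalamus, 2 of 4 pituitary markers were lower by it. The oligodendrocyte list, 7 tested of 8, was lower in the knockout without overlap in every region. It ranged from -0.54 to -0.29 in knockout cortex against -0.15 to 0.19 in wild type, from 0.00 to 0.12 against 0.19 to 0.31 in hippocampus, and from -0.29 to -0.08 against 0.16 to 0.26 in hypothalamus. Endothelial markers, 5 tested of 6, were at -0.28 to 0.01 in knockout cortex and 0.22 to 0.33 in wild-type cortex. In hippocampus the endothelial list was at -0.18 to -0.02 in knockout and 0.05 to 0.09 in wild type, and in hypothalamus the genotypes overlapped. Red cell markers, 3 tested of 4, were at -0.61 to -0.05 in knockout cortex and 0.16 to 0.41 in wild type, at -0.71 to -0.14 and 0.19 to 0.78 in hypothalamus, and overlapped in hippocampus. Astrocyte markers, 6 tested of 6, overlapped in cortex, were just below wild type in knockout hippocampus, with an upper value of 0.069 against a lower wild-type value of 0.071, and were at 0.13 to 0.16 in knockout hypothalamus and 0.30 to 0.33 in wild type. Choroid plexus markers, 6 tested of 6, were higher in knockout cortex, at -1.37 to -1.13 against -1.76 to -1.62, and lower in knockout hypothalamus, at -1.32 to -1.22 against -1.18 to -1.02. Neuronal markers, 4 tested of 6, overlapped between genotypes in all 3 regions. The part of these cell types in the family's shift was not tested, and fewer cells of a type and less RNA per cell cannot be told apart in such tissue samples.

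The largest changes after Rps15a that did not pass the test differed between regions. In cortex they were Rpl3l at 0.50 ± 0.23, Rpl22l1 at 0.34 ± 0.15, Rplp0 at 0.29 ± 0.13, Rpl37a at 0.24 ± 0.08 and Rpl23a at 0.23 ± 0.09, with limma adjusted p-values of 0.167 to 0.312. Rpl7l1, a paralog of Rpl7 found in ribosome assembly, was at -0.32 ± 0.11 there, with a limma adjusted p of 0.176. The direction of Rpl7l1 turns with the probe, since its dimmer probe, also detected on all 18 arrays, gave 0.09 in cortex, 0.23 in hippocampus and 0.09 for the average. In hippocampus Rps25, a small-subunit protein known for internal initiation on viral RNAs, was at 0.36 ± 0.11, with a limma adjusted p of 0.187. Rps25 read 12.67, 12.98 and 12.82 in knockout hippocampus and 12.41, 12.51 and 12.46 in wild type, without overlap. Its change was 0.01 in cortex and 0.02 in hypothalamus. Rpl3l at 0.34 and Rps27l at 0.22 were also among the highest in hippocampus, and Rpl29 at -0.27, Rpsa at -0.23 and Rpl7l1 at -0.21 among the lowest. In hypothalamus Rps2, near the entry of the messenger RNA channel, was at 0.28 ± 0.12, Rpl3l at 0.29 ± 0.23, Rpsa at 0.23 ± 0.16 and Rps15 at 0.21 ± 0.10. Rps9 at -0.21, Rpl29 at -0.19 and Rpl22l1 at -0.18 were the lowest there after Rps15a and Rps3a1. The limma adjusted p-values of these hypothalamic members were 0.394 to 0.759. Over the average, the members nearest to a call without reaching it were Rpl23a at 0.17 ± 0.05, Rps15 at 0.19 ± 0.06 and Rps2 at 0.22 ± 0.07, with limma adjusted p-values of 0.0553, 0.06 and 0.064.

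More than 1 tested probe was present for 12 members, and all probes of a gene had the same call for 11 of the 12 in cortex and for 10 of the 12 in hippocampus, in hypothalamus and for the average. The genes whose probes differed were Rpl29 and Rplp0, named after their values were seen. Rpl29 is a large-subunit protein also known to bind heparin, and Rplp0 is the base of the ribosomal stalk. For each, both probes are annotated to 1 transcript accession. The brighter probe represents the gene in all counts above.

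The dimmer Rpl29 probe, detected on all 18 arrays, read 8.89, 8.93 and 8.77 in knockout cortex and 9.78, 9.71 and 9.86 in wild type. In hippocampus it read 8.77, 8.70 and 8.79 against 9.79, 9.77 and 9.71. In hypothalamus it read 8.68, 8.28 and 8.39 against 8.93, 8.88 and 9.41. The genotypes did not overlap in any region. The dimmer probe fell in all of them, with changes of -0.92 ± 0.13 (cortex), -1.004 ± 0.13 (hippocampus) and -0.62 ± 0.13 (hypothalamus), with limma adjusted p-values of 0.00055, 0.000304 and 0.0164. The brighter probe gave -0.02, -0.27 and -0.19 in the same regions and -0.16 ± 0.07 for the average, with a limma adjusted p of 0.24, against -0.85 ± 0.07 and 1.11e-06 for the dimmer one.

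The dimmer Rplp0 probe was detected on 6 arrays, the 3 wild-type hippocampus and the 3 wild-type hypothalamus arrays, and was not well above background on the others. It read 6.65, 6.24 and 6.04 in wild-type hippocampus and 6.48, 6.54 and 6.39 in wild-type hypothalamus. On the knockout arrays of these regions it read 4.89 to 5.35. It was at least 1.23-fold lower in knockout hippocampus and at least 1.52-fold lower in knockout hypothalamus. The limma adjusted p-values of 0.00389 and 0.00177 belong to the fitted changes of -1.32 and -1.41, which use undetected knockout readings, and not to these bounds. The probe passed the detection filter only through the wild-type arrays on which it was high, so its fall is given as a description. For these bounds each knockout array counted at its own reading or at that array's dimmest detected probe, whichever was greater. The brighter Rplp0 probe moved the other way, by 0.29, 0.23 and 0.14 in cortex, hippocampus and hypothalamus, without passing the test.

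**Figure D4:**
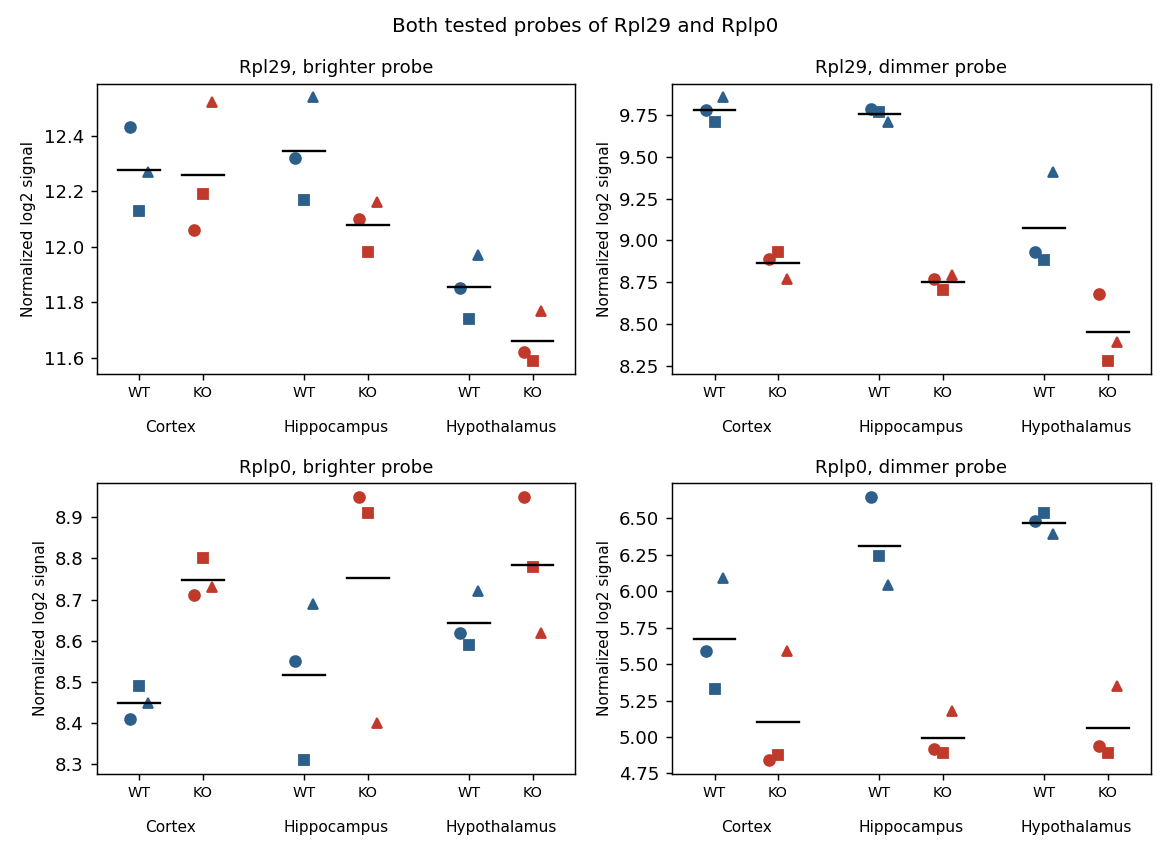
Normalized log2 signal (vertical axis) of both tested probes of Rpl29 and Rplp0 on each array, by region and genotype (horizontal axis: WT blue, KO red). Circles, squares and triangles are replicates 1, 2 and 3, black lines are means of 3 arrays, and the vertical axes differ and do not start at 0. The dimmer probes (right) are lower in knockout, with the dimmer Rplp0 probe detected only on wild-type hippocampus and hypothalamus arrays. The brighter probes (left) differ less and did not pass the test, with knockout means higher for Rplp0 and lower for Rpl29.

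Among wild-type animals the family was highest in hypothalamus. Against cortex, 34 of 58 members were higher, 58.6% against 26.5% of all genes, and 2 were lower, against 24.9%. The 34 were 19 of 35 large-subunit and 15 of 23 small-subunit genes. The median member was 0.29 log2 units higher, and the median of all genes 0.01 higher. Against hippocampus, 20 members were higher in hypothalamus, against 22.8% of all genes, and 3 were lower, against 21%, with a median of 0.18. That count is 34.5% of the family. The 23 called members became 14, with 12 higher, without wild-type hypothalamus replicate 1, and 11, with 8 higher, with the deposited z scores. Between hippocampus and cortex, 4 members were higher in hippocampus, against 9.4% of all genes, and 0 were lower, against 10.5%, with 0 lower at an unadjusted p under 0.05. The median there was 0.11, with 45 of 58 members higher. With median scaling it was -0.01, with 24 higher, while the median of all genes moved to -0.11, and with the deposited z scores it was 0.20, with 53 higher.

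Rpl22l1, the paralog of Rpl22, had the widest difference. It read 10.69, 10.25 and 10.27 in wild-type hypothalamus, 9.49, 9.45 and 9.24 in hippocampus and 8.93, 9.14 and 9.38 in cortex. Hypothalamus was above cortex by 1.25 ± 0.15, 2.38 times, with a limma adjusted p of 5.29e-06, and above hippocampus by 1.01 ± 0.15, with a limma adjusted p of 6.23e-05. Hippocampus and cortex overlapped for Rpl22l1, differing by 0.24 ± 0.15. Rpl22 ran the other way, at 11.15, 11.02 and 11.12 in hypothalamus, 11.75, 11.75 and 11.91 in hippocampus and 11.59, 11.55 and 11.60 in cortex. Hypothalamus was below cortex by -0.48 ± 0.08 and below hippocampus by -0.71 ± 0.08, with limma adjusted p-values of 8.58e-05 and 1.83e-06. In mice loss of Rpl22 is known to raise Rpl22l1. Here the paralogs differed in opposite directions between hypothalamus and the other regions, while both read higher in hippocampus than in cortex, by 0.24 for Rpl22l1 and 0.22 for Rpl22, without passing the test. In the knockout the difference between hypothalamus and cortex was 0.73 ± 0.15 for Rpl22l1 and -0.26 ± 0.08 for Rpl22, with limma adjusted p-values of 0.00107 and 0.012. For unequal knockout effects across regions, the F test gave limma adjusted p-values of 0.767 for Rpl22l1 and 0.759 for Rpl22.

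Other members high in hypothalamus against cortex were Rps15a at 0.92 ± 0.10, with a limma adjusted p of 1.45e-06, and Rps27l at 0.75 ± 0.09, with 4.51e-06. Rps27l, a paralog of Rps27 induced by p53, read 12.17, 12.13 and 12.14 in wild-type hypothalamus, 11.60, 11.97 and 11.83 in hippocampus and 11.43, 11.38 and 11.37 in cortex, with no overlap between regions. Rpl10, an X-linked protein added late in the maturation of the large subunit, was higher by 0.58 ± 0.08, with a limma adjusted p of 2.41e-05. Rps9 was higher by 0.57 ± 0.11 and Rps26, near the exit of the messenger RNA channel, by 0.53 ± 0.11. Rps6, the target of the ribosomal S6 kinases, was higher by 0.48, with a limma adjusted p of 0.00181. The other 27 higher members ranged from 0.22 for Rps7 to 0.51 for Rps3a1. Besides Rpl22, the member lower in hypothalamus was Rpl29, at -0.42 ± 0.13 by the brighter probe and -0.71 ± 0.13 by the dimmer one. Of the 12 members with more than 1 tested probe, all probes had the same sign for 10. Rpl23 was not called by its brightest probe, at 0.08. Its other tested probes gave 0.243 and 0.247, with limma adjusted p-values of 0.0113 and 0.0465. Rpl27a was called by its brighter probe and not by its dimmer one, at 0.24 with 0.275.

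Against hippocampus the highest members in hypothalamus were Rpl22l1, Rps15a at 0.96, Rpl10 at 0.39, Rps26 at 0.38 and Rps24 at 0.37. The lower ones were Rpl22, Rpl29 at -0.49 and Rpsa, the laminin receptor precursor, at -0.47. Rpsa read 6.42, 6.49 and 6.64 in wild-type hypothalamus and 7.03, 6.87 and 7.06 in hippocampus, without overlap, and its difference in the knockout was -0.01. The 4 members higher in hippocampus than in cortex were Rps27l at 0.41, Rpl30 at 0.38, Rps13 at 0.30 and Rps27 at 0.26, with limma adjusted p-values of 0.00245 to 0.0293. Of these, Rpl30 read 11.60, 11.64 and 11.65 in hippocampus and 11.27, 11.23 and 11.24 in cortex. Without wild-type cortex replicate 2 or 3, or wild-type hippocampus replicate 2 or 3, 2 members passed between these regions.

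The wild-type regions also differed in cell type markers. Neuronal markers were at -0.83 to -0.68 in wild-type hypothalamus and 0.43 to 0.51 in cortex, microglial markers at -0.31 to -0.24 and 0.13 to 0.23, and astrocyte markers at 0.30 to 0.33 and -0.36 to -0.23. The part of cell composition in the regional differences was not tested.

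The knockout arrays, which share no sample with the wild-type arrays, gave a like regional pattern. In the knockout, 30 members were higher in hypothalamus than in cortex, against 24.7% of all genes, and 2 were lower, against 24.5%, with a median of 0.24. Of 36 members called in wild type and 32 called in knockout, 30 were called in both and in the same direction, which is 83.3% of the first and 93.8% of the second. Across the 58 members the differences in the 2 genotypes had the same sign for 51, with a Pearson r of 0.87 across genes, which are not independent replicates and share each genotype's arrays and probes. Rpl22 and Rpl29 were the lower members in both. In the knockout Rps15a was higher in hypothalamus than in cortex by 0.31 ± 0.10, with a limma adjusted p of 0.0169, and Rps27l by 0.57 ± 0.09.

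**Figure D5:**
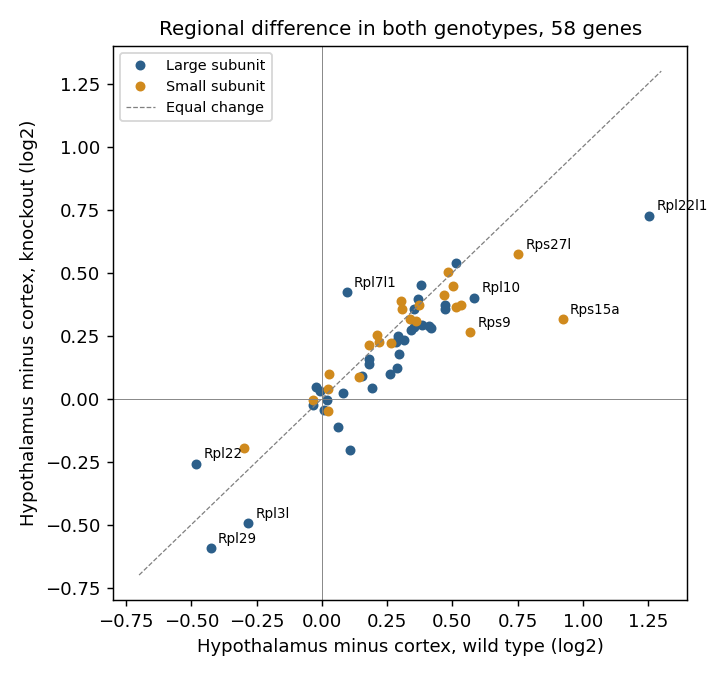
Hypothalamus minus cortex log2 signal of the 58 members in wild type (horizontal axis) and in knockout (vertical axis), from 3 arrays per region and genotype; blue points are large-subunit and orange points small-subunit genes, and the dashed line marks equal differences. Most points lie above 0 on both axes, with Rpl22 and Rpl29 below 0 on both and Rpl22l1 and Rps15a to the right of the dashed line.

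Paralogs and their parent genes were compared within the family. Rpl3 read 14.71 to 14.76 in wild-type cortex, 14.85 to 14.98 in hippocampus and up to 15.03 in hypothalamus, and its paralog Rpl3l 5.94 to 6.19, 5.70 to 6.07 and 5.62 to 5.88. Rpl3 was higher in hypothalamus than in cortex by 0.28, with a limma adjusted p of 0.00359, while Rpl3l differed by -0.28 ± 0.23, with 0.327. Rpl36al, an autosomal paralog of the X-linked Rpl36a, was higher in hypothalamus than in cortex by 0.38 ± 0.10, and Rpl36a by 0.29 ± 0.09, with limma adjusted p-values of 0.00406 and 0.0132. In the knockout contrasts none of Rpl3, Rpl3l, Rpl7l1, Rpl22l1, Rpl36a, Rpl36al, Rps27 and Rps27l passed the test, and the largest average changes among them were 0.38 ± 0.13 for Rpl3l and -0.17 ± 0.06 for the brighter probe of Rpl7l1. Rpl7 was not analysed here. The 4 X-linked members, Rpl10, Rpl36a, Rpl39 and Rps4x, were all higher in wild-type hypothalamus than in cortex.

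Other genes of translation changed little in the knockout. Of 9 tested elongation factors, limma called 0 in any region or for the average, with 2 higher and 1 lower at an unadjusted p under 0.05 in cortex, 0 in hippocampus and hypothalamus and 2 higher for the average. Of 32 tested initiation factors, 0 passed within a region, where at most 1 was higher and 1 lower before adjustment. For the average 1 rose, Eif3j1 at 0.29, with a limma adjusted p of 0.0423, which is 3.12% against 3.11% of all genes. Of 10 tested other genes with terminal oligopyrimidine transcripts, 0 passed, with 1 higher before adjustment in hypothalamus, and their median changes were -0.02, -0.01 and -0.06 in cortex, hippocampus and hypothalamus. Fau, the 1 tested ribosomal protein gene outside the symbol rule, did not pass the test, at an average of 0.10.

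Of 48 tested genes of ribosome biogenesis, 1 fell in cortex, 2.08% against 1.38% of all genes. It was Sbds, which helps release an anti-association factor from the large subunit, at -0.35 ± 0.08 with a limma adjusted p of 0.0211. For the average 3 rose, 6.25% against 3.11% of all genes, Ebna1bp2 at 0.36, Mybbp1a at 0.25 and Nop10 at 0.18. Of 70 tested mitochondrial ribosomal protein genes, 1 rose in cortex, Mrpl54 at 0.35, and 1 in each of the other regions, Mrps10 at 0.58 in hippocampus and 0.56 in hypothalamus. In each region that is 1.43% of the list, against 1.21%, 0.77% and 0.713% of all genes in cortex, hippocampus and hypothalamus. For the average 4 mitochondrial genes rose, 5.71% against 3.11% of all genes. Mrps7 alone fell, by 0.23 on the log2 scale, 1.43% against 3.13%. Of 13 tested genes of mTOR and S6 kinase signalling, 1 fell in hippocampus and for the average, Tsc2, an inhibitor of mTOR. It fell by 0.80 on the log2 scale in hippocampus, with a limma adjusted p of 0.00713, and by 0.63 for the average, with 0.000137. This 1 gene is 7.69% of the list, against 0.561% of all genes lower in hippocampus and 3.13% for the average.

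Between wild-type hypothalamus and cortex the elongation factors divided, with 5 of 9 higher, 55.6% against 26.5% of all genes, and 2 lower, 22.2% against 24.9%. The subunits Eef1b2 and Eef1g of the exchange factor were higher by 0.60 and 0.49. Eef1a2, the neuronal form of the factor that brings transfer RNA to the ribosome, was lower, at -0.55, and Eef2k, the kinase that inhibits elongation, at -1.12. Among other genes with terminal oligopyrimidine transcripts, 2 of 10 were higher, Naca at 0.71 and Npm1 at 0.74, which is 20% against 26.5%, and 1 was lower, Pabpc1 at -0.43, which is 10% against 24.9%. Of 32 initiation factors 4 were higher and 6 lower, 12.5% and 18.8% of the list, with a median of 0.02. Of 48 genes of ribosome biogenesis 16 were higher and 8 lower, 33.3% and 16.7%, with a median of 0.11. Of 70 mitochondrial ribosomal protein genes 17 were higher, 24.3% against 26.5% of all genes, and 9 lower, 12.9% against 24.9%, with a median of 0.07 against 0.29 for the cytosolic family.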

How the data were processed

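Total RNA of each region was hybridised to Illumina bead arrays. Per the file headers, the deposited table holds 1 intensity and 1 detection p-value per probe and array; GenomeStudio 2011.1 is named in the submitters' processing notes, and no source used here gives the background treatment or any batch. The authors' deposited score is a z score of each array's log signal, to within 5e-10, and served as an alternative. Groups came from the sample titles.

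The neqc function corrected the intensities for background through the detection p-values, applied quantile normalization and took log2 (offset 16). Probes with detection p under 0.05 on at least 3 of 18 arrays were tested (15476 of 25697). Of all probes, 23978 had 1 gene symbol, 0 several and 1719 none. A gene's probe of highest mean stood for it. One limma 3.58.1 fit (R 4.3.3) of 6 group means, with 12 residual degrees of freedom and eBayes, gave all tests, adjusted by Benjamini-Hochberg over all tested probes, and was tested on simulated data. Changes are log2 differences ± SE. The number of arrays limits the precision. Named were members past the threshold, the 5 largest changes in each direction per comparison, paralogs with their parents, and up to 4 called genes of each other list. Members and lists were chosen with earlier results of these data known. Chromosomes, neighbours and promoters came from RefSeq for GRCm38.p6, which matched all 65 members by gene ID, and no build is named for the arrays. Alternatives were other normalizations, background treatments, filters, probe rules, array weights, a replicate block and arrays left out. Figures used matplotlib 3.10.9 in Python 3.11.15.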

Additional observations from a re-analysis of the deposited data

How the results depend on the processing

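The fall of Rps15a kept its direction and its call in all 3 regions and for the average under every alternative run, with limma adjusted p-values of at most 0.0208. The test between regions called 0 members in every alternative. Leaving out 1 array gave 1 called member in cortex and 1 in hippocampus each time, 1 to 2 in hypothalamus, 3 to 7 for the average, 2 to 6 between wild-type hippocampus and cortex, 30 to 37 between hypothalamus and cortex and 14 to 24 between hypothalamus and hippocampus. The count for the average was 3 without wild-type cortex replicate 2, knockout or wild-type hippocampus replicate 1 or 2, or knockout or wild-type hypothalamus replicate 2, and the 14 came without wild-type hypothalamus replicate 1. The median changes then ranged from 0.08 to 0.13 in cortex, 0.04 to 0.10 in hippocampus and 0.012 to 0.10 in hypothalamus, and between wild-type regions from 0.067 to 0.14, 0.26 to 0.31 and 0.14 to 0.22 in the order above. The count for the average of 5 became 9 with array weights, 8 without background correction, 8 with the mean over a gene's probes, 3 with median scaling and 1 without the 3 cortex arrays with high striatal markers, a choice made after seeing the data. Counting every tested probe, or averaging them, gave 2 in cortex, 3 in hippocampus and 4 in hypothalamus, since the dimmer Rpl29 and Rplp0 probes then count. The hypothalamic count was 1 with median scaling or with only the arrays compared. The 4 between hippocampus and cortex became 2 with z scores, 1 with median scaling, 2 without the striatal arrays and 2 with only the arrays compared, and the 23 between hypothalamus and hippocampus became 11 with z scores. Median changes moved to 0.044 in cortex without the striatal arrays, 0.14 in hippocampus with median scaling and 0.012 in hypothalamus with z scores. Between hippocampus and cortex the median was 0.20 with z scores and 0.067 without the striatal arrays, and it reversed to -0.013 with median scaling. Between hypothalamus and cortex it was 0.36 with z scores, and between hypothalamus and hippocampus 0.28 with median scaling and 0.13 without the detection filter. The change of Rplp0 in hippocampus reversed to -0.54 with the mean over its probes and -1.32 with its dimmer probe, which was not well above background on the knockout arrays there, so for that probe only the bound of at least 1.23-fold lower holds. The causes were not tested. Same-numbered knockout and wild-type arrays correlated at -0.28 to 0.06 in cortex, 0.07 to 0.12 in hippocampus and 0.06 to 0.22 in hypothalamus. Differently numbered ones correlated at -0.20 to 0.23, -0.080 to -0.007 and -0.22 to 0.12 in that order. In hippocampus same-numbered arrays were thus the more alike. Whether the number marks a pairing or a batch was not tested. Same-numbered arrays of different regions correlated at -0.15 to 0.37, and at 0.22, 0.26 and 0.37 between knockout hippocampus and hypothalamus, although the labels give 18 animals. With the replicate number as a block the counts were 1, 1 and 2 in the 3 regions, 6 for the average and 4, 37 and 24 between regions. Dim members are limited by signal over background, Rpl3l and the dimmer Rplp0 probe foremost. At the bright end readings reached 55376 units, for Rplp1, and whether differences narrow at such signals was not tested.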
